A study of Mus musculus with 14 samples.

Results

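The genes of glycolysis and of the hypoxia response were described in regulatory T cells (Tregs) from mouse melanoma, lymph node and spleen. They are a list of 36 genes: glucose transporters, glycolytic enzymes, lactate and pyruvate genes, regulators of the hypoxia-inducible factors (HIFs) and HIF targets. Of these, 35 had 1 row each among the 22255 genes of the expression files, and Bnip3 had none and was not analysed here.

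The libraries were bulk Smart-Seq2 RNA-seq of small numbers of cells. All mice were 8 weeks old by the labels, and every cell population carried a Foxp3-YFP reporter with Cre driven from Foxp3, which is the gene that defines Tregs. The KO tumor group held 3 libraries of Tregs from Yumm1.7 melanoma, a transplantable mouse melanoma line, in mice labelled CD36floxed FoxP3-YFPCre+/- and described as lacking CD36 in Tregs. The WT tumor group held 3 libraries of Tregs from the same tumor line in FoxP3-YFPCre+/+ mice, numbered 2, 3 and 4. The LN (lymph node) and spleen groups held 4 libraries each, also from FoxP3-YFPCre+/+ mice. The Cre label differed between the KO and WT mice together with the floxed gene, so the 2 cannot be told apart. The labels do not say that the libraries of a group came from separate animals, so the p-values measure the spread between these libraries, which may be in part technical.

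Values are FPKM (fragments per kilobase of transcript, scaled to the mapped fragments of a library), which are per length and can be set side by side between genes. This holds less for genes whose reads may be shared with near-identical copies. Between 7469 and 8307 genes reached 1 FPKM in a library. Markers of the labelled cell type were present: the 7 Treg and T cell markers were above 0 in every library and summed to 805.7 to 954.6 FPKM in KO tumor, 708.6 to 863.0 in WT tumor, 419.2 to 480.1 in LN and 423.8 to 589.2 in spleen libraries. Foxp3 itself was listed at 25.7 to 42.4 FPKM in KO tumor, 3.54 to 12.0 in WT tumor, 15.4 to 32.3 in LN and 8.67 to 27.8 in spleen libraries. It was lower in every WT tumor than in every LN library, by -1.42 ± 0.55 log2 units, without passing the threshold (adjusted p = 0.223). Cd36, the targeted gene, was listed at 1.06 FPKM in KO tumor library 2 and at 0 in the other KO tumor and in all WT tumor libraries, so it gave no check of the genotype labels, and KO and WT are used below as labelled.

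Glycolysis splits glucose into pyruvate in the cytosol, and lactate dehydrogenase turns pyruvate into lactate, which leaves the cell through monocarboxylate transporters. HIF-1α is hydroxylated by the EGLN enzymes when oxygen is plentiful and is then marked by VHL for destruction. When oxygen is scarce it pairs with a constitutive partner and raises transcription of many glycolytic enzymes and of its own regulators. Tregs in general depend less on glycolysis than conventional effector T cells, and HIF-1α is known in mice to act on the balance between Tregs and Th17 cells.

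Aldoa, Tpi1, Pkm, Ldha and Hif1a were called higher (adjusted p under 0.05, limma) in tumor Tregs of either genotype against both spleen and LN. Slc16a3 was too, but it entered the tests only through the tumor libraries in which it was high. In WT tumor against spleen, each of these calls was lost under some alternative processing or without some library. No gene of the group was called lower in these 4 comparisons, though Ldhb was lower in every tumor than in every LN library. The 35 genes summed to 3493 ± 360 FPKM in KO tumor and 3123 ± 156 in WT tumor (SD, n = 3 each), against 1247 ± 36.8 in LN and 1260 ± 98.8 in spleen libraries (SD, n = 4 each). They made up 0.629 to 0.671% of all FPKM in KO tumor, 0.505 to 0.558% in WT tumor, 0.235 to 0.250% in LN and 0.214 to 0.240% in spleen libraries. The tumor and lymphoid ranges did not overlap. By step, the 11 upper glycolysis genes summed to 1158 to 1291 FPKM in KO tumor, 842.0 to 1084 in WT tumor, 163.9 to 288.6 in LN and 255.1 to 306.6 in spleen libraries. The 6 lower glycolysis genes summed to 944.0 to 1215, 813.2 to 1053, 361.4 to 402.4 and 362.6 to 484.5 FPKM in KO tumor, WT tumor, LN and spleen libraries, in that order. The 4 genes with the most RNA, Ldha, Pkm, Aldoa and Tpi1, held 62.9 to 69.1% of the summed FPKM in KO tumor libraries, 63.9 to 69.8% in WT tumor, 48.4 to 57.3% in LN and 57.5 to 65.1% in spleen libraries.

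**Figure D1:**
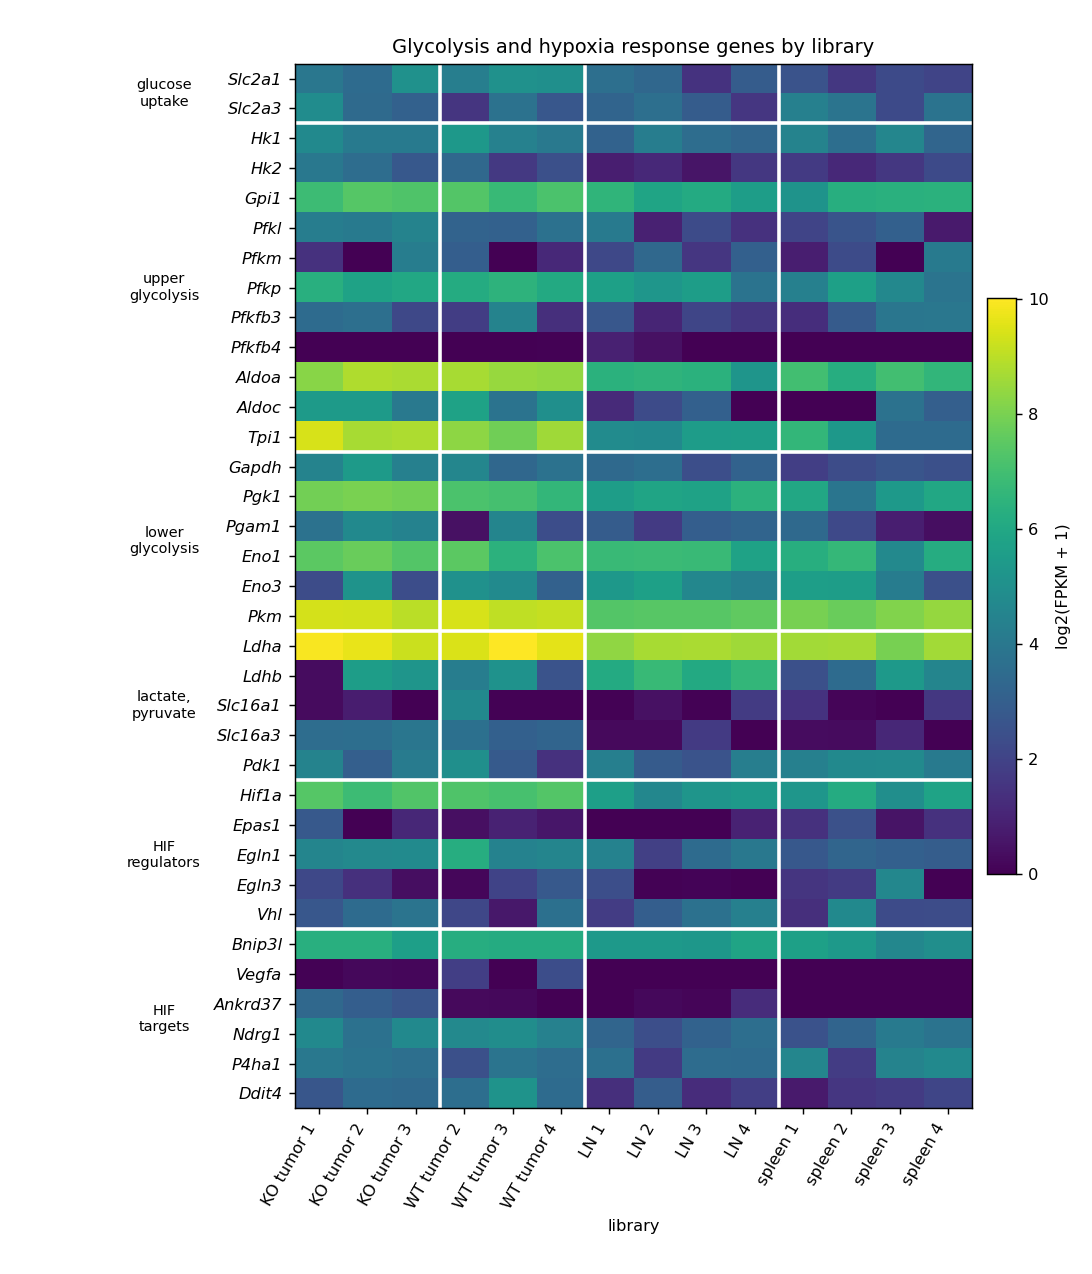
Heat map of log2(FPKM + 1) for the 35 genes (rows, in pathway order) in the 14 libraries (columns: KO tumor, WT tumor, LN, spleen). The rows for Aldoa, Tpi1, Pkm and Hif1a are brighter in all 6 tumor libraries than in the 8 lymphoid ones, while Pfkfb4 and Vegfa are near 0 almost throughout.

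Differences were fitted with limma across all genes on log2(FPKM + 1), with p-values adjusted over all genes tested, and a gene was called at an adjusted p under 0.05. Of 32 of these genes tested, 7 rose in WT tumor against spleen, where 1.2% of all 9616 genes rose, and 0 fell, where 0.707% of all genes fell. Leaving out 1 library moved the 7 to between 1 and 6, with 1, 2 and 3 called without WT tumor library 2, 3 and 4. In WT tumor against LN, 6 of 32 rose (1.89% of all genes) and 0 fell (1.14%). In KO tumor against spleen 9 of 33 rose (1.64% of all 10147 genes tested there) and 0 fell (1.16%), and in KO tumor against LN 9 of 33 rose (2.11%) and 0 fell (1.31%). Ankrd37, 1 of the 9 in both, passed the filter on low values only through the KO tumor libraries in which it was high. Slc16a3, called in each of these tumor comparisons with lymphoid tissue, passed it only through the tumor libraries in which it was high. The KO tumor comparisons with lymphoid tissue change genotype and tissue at once, and they share the spleen and LN libraries with the WT tumor comparisons. At an unadjusted p under 0.05, 17 genes of the group were higher and 0 lower in WT tumor against spleen, where 14.3% of all genes passed in either direction, and 15 were higher and 1 lower in WT tumor against LN (15.6%). In KO tumor, 20 were higher and 0 lower against spleen (13.9% of all genes) and 17 higher and 1 lower against LN (13.1%). The lower gene was Ldhb in both. The other calls are given gene by gene below.

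Without regard to a test, 17 of the 32 were higher in every WT tumor than in every spleen library, against 5.73% of all genes, and 0 were lower in every one, against 5.8%. Against LN, 15 were higher in every WT tumor library (8.02% of all genes) and 1, Ldhb, was lower (8.95%). In KO tumor, 19 of 33 were higher in every library than in every spleen library (7.05% of all genes) and 0 lower (6.4%), and 17 were higher than in every LN library (8.83%) and 1, Ldhb, lower (8.06%). In all 6 tumor libraries, 10 of 33 were above all 8 lymphoid libraries, where 1.8% of all genes were, and 0 were below them (0.68%). These 10 were Gpi1, Pfkp, Aldoa, Aldoc, Tpi1, Pgk1, Pkm, Ldha, Slc16a3 and Hif1a. Of the genes counted here, Slc16a3 and, in KO tumor, Ankrd37 passed the filter only through tumor libraries in which they were high. The median fitted difference over the genes tested was 1.06 log2 units in WT tumor against spleen, beside -0.0749 over all genes, and 1.05 in WT tumor against LN, beside -0.116 over all genes. It was 1.18 in KO tumor against spleen, beside 0.0211 over all genes, and 1.21 in KO tumor against LN, beside -0.00509. A difference on the log2(FPKM + 1) scale understates the change of genes with low FPKM. As these are bulk samples, a smaller share of cells of one type and less RNA per cell cannot be told apart.

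Other lists moved with the tumor groups, and their part in these results was not tested. Immediate early and heat shock genes, which respond to tissue dissociation among other things, summed to 3075 to 3794 FPKM in KO tumor and 3895 to 5094 in WT tumor, against 741.3 to 884.1 in LN and 1085 to 1283 in spleen libraries. Of the 13 tested, 9 rose in WT tumor against spleen (1.2% of all genes did) and 11 against LN (1.89%). Their most abundant genes were the heat shock genes Hspa8, at 661.2 to 920.7 FPKM in KO tumor, 894.8 to 991.9 in WT tumor, 436.4 to 490.4 in LN and 469.5 to 660.8 in spleen, and Hsp90aa1, at 722.6 to 891.0 in KO tumor, 1196 to 1811 in WT tumor, 143.5 to 187.8 in LN and 331.8 to 399.4 in spleen libraries. None of this list was at 0 throughout a tumor group, and Ier3 and Atf3 were at 0 in all LN libraries. The 12 macrophage and monocyte markers did not follow the same order: they summed to 307.8 to 414.7 FPKM in KO tumor, 1.18 to 106.9 in WT tumor, 4.04 to 36.1 in LN and 271.4 to 710.9 in spleen libraries, with Adgre1 and Cd68 at 0 in all WT tumor libraries and Cd14 at 0 in all KO tumor, LN and spleen libraries. Hemoglobin and other erythroid genes summed to 63.3 to 16430 FPKM in KO tumor, 225.0 to 11900 in WT tumor, 79.0 to 1192 in LN and 2976 to 7086 in spleen libraries, with Slc4a1 at 0 in all tumor libraries. The 7 CD8 T and NK cell markers summed to 17.0 to 53.7 FPKM in KO tumor, 25.8 to 66.8 in WT tumor, 0.11 to 9.62 in LN and 7.82 to 66.8 in spleen libraries. Cd8b1 was the most abundant of them in WT tumor at 14.3 to 62.6 FPKM, where Cd8a was at 0.089 to 1.57 FPKM. Ncr1 was at 0 in all tumor and LN libraries. The 10 B cell markers summed to 1314 to 14990 FPKM in KO tumor, 448.9 to 841.9 in WT tumor, 624.1 to 825.0 in LN and 1289 to 7397 in spleen libraries. Of the 8 tested, 4 fell in WT tumor against spleen, where 0.707% of all genes fell. The 7 melanoma markers summed to at most 0.633 FPKM in KO tumor, 1.73 in WT tumor, 3.73 in LN and 1.84 in spleen libraries, and Mlana, Tyrp1, Dct and Sox10 were at 0 in all 14.

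**Figure D2:**
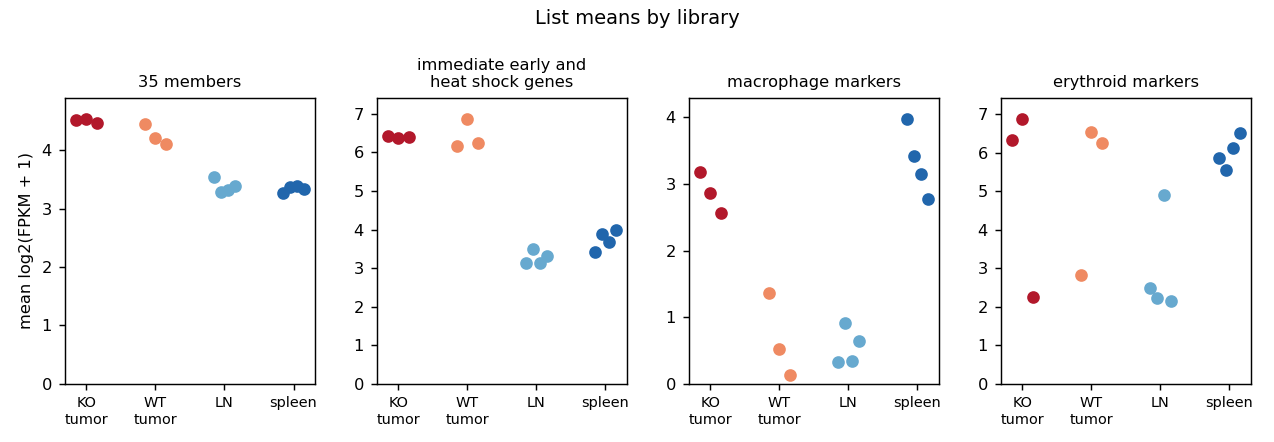
Mean log2(FPKM + 1) per library (points) over the 35 genes and over 3 marker lists, by group from KO tumor on the left to spleen. The 35 genes lay at 4.47 to 4.53 in KO tumor and 4.11 to 4.44 in WT tumor, above 3.29 to 3.54 in LN and 3.28 to 3.39 in spleen, and immediate early and heat shock genes also stood higher in the tumor groups, while macrophage markers were high in KO tumor and spleen.

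The HIF complex is known to bind DNA at a short core with the letters ACGTG or GCGTG. Sequences upstream of transcription starts were read from RefSeq promoters (build GRCm38.p6) for 31 of the 35 genes. A window of 250 bases upstream held either core on either strand in at least 1 promoter of 28 of them. Counted over promoters, 36 of 45 (80%) of the group's windows held one, against 12679 of all 32851 (38.6%). ACGTG alone was in 46.7% of the group's windows and 16.6% of all windows. A CACGTG E-box, which contains an ACGTG on each strand and is read by other factors too, was in 11.1% of the group's windows and 6.02% of all windows. The group was chosen to include known HIF targets, so these shares do not test whether HIF acts on it. Overlapping windows of a gene, as for Eno1, were counted separately. For 4 genes that rose in WT tumor against both spleen and LN, the window with the most matches that held at most 30 annotated UTR bases is shown 5′ to 3′ on the gene's strand, with each match in capitals (CACGT is ACGTG on the other strand). Aldoa is on chr7:126799255-126799504, minus strand. Hif1a is on chr12:73907617-73907866, Ldha on chr7:46845554-46845803 and Slc16a3 on chr11:120948817-120949066, all plus strand. Each window lies inside a longer annotated transcript of its own gene.
Aldoa: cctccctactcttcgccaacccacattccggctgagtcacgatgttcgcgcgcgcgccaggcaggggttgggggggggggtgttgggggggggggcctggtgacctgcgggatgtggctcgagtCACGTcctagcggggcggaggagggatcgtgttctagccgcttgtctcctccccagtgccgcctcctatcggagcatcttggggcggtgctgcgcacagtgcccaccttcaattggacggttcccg
Hif1a: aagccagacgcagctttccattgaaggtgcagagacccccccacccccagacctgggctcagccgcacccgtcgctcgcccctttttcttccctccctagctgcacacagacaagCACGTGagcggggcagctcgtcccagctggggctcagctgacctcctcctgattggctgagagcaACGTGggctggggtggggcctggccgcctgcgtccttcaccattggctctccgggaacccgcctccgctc
Ldha: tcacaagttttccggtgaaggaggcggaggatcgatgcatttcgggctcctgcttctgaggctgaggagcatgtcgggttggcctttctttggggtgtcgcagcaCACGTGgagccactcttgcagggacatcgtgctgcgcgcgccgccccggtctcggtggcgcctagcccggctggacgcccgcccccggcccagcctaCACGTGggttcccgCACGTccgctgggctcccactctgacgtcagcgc
Slc16a3: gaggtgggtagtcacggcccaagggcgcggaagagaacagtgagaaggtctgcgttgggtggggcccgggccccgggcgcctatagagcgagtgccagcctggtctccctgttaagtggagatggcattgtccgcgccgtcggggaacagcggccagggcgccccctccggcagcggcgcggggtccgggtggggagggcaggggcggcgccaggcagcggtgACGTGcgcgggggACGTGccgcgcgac
The Ldha window held 5 matches to ACGTG over both strands, 2 of its sites being CACGTG, the Hif1a window 3, the Slc16a3 window 2 and the Aldoa window 1. Of the other 2 genes called in both comparisons, Tpi1 held no match in its window, and Pkm held 1 in a window that is not shown. Such a match is a description of the letters and not evidence of binding in these cells.

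Glucose enters T cells mainly through the transporters GLUT1 (Slc2a1) and GLUT3 (Slc2a3). Slc2a1 was listed at 14.8, 10.3 and 32.9 FPKM in KO tumor libraries 1, 2 and 3, at 18.6, 32.1 and 30.9 in WT tumor libraries 2, 3 and 4, at 11.5, 9.06, 1.75 and 6.54 in LN libraries and at 4.95, 2.09, 3.80 and 3.21 in spleen libraries. Every tumor library exceeded every spleen library, whereas 1 LN library, at 11.5 FPKM, exceeded the lowest KO tumor library. Slc2a1 rose by 2.64 ± 0.60 log2 units (SE) in WT tumor against spleen (limma, adjusted p = 0.0375), but this call was lost in 12 of 14 alternatives, among them those without any 1 of the 7 libraries of those groups, with adjusted p values of 0.0519 to 0.121, and with no filter on low values (0.0659). The difference was 1.94 ± 0.60 in WT tumor against LN (adjusted p = 0.111) and 2.05 ± 0.59 in KO tumor against spleen (adjusted p = 0.0797), neither past the threshold. Slc2a3 did not follow Slc2a1: it was at 7.58 to 28.1 FPKM in KO tumor, 1.91 to 12.6 in WT tumor, 1.98 to 11.7 in LN and 3.77 to 19.5 in spleen libraries, with overlap between all groups. The log2 ratio of Slc2a3 to Slc2a1 within a library was -2.10 ± 0.75 in WT tumor (SD, n = 3) and 1.44 ± 0.99 in spleen (SD, n = 4), groups that did not overlap. The exact two-sided permutation p was 0.0286, the smallest that 3 against 4 libraries allow, and 0.286 after adjustment over the 20 tests of 5 isozyme ratios in 4 comparisons, of which none passed.

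Hexokinase traps glucose as its phosphate. Hk1, the housekeeping form, was the more abundant in every library, at 15.8 to 26.3 FPKM in KO tumor, 15.6 to 40.1 in WT tumor, 7.98 to 18.2 in LN and 8.54 to 22.9 in spleen libraries, and was called in no comparison. Hk2, the inducible form, was at 15.1, 11.1 and 5.80 FPKM in KO tumor, 9.39, 2.16 and 4.40 in WT tumor, 0.811, 1.23, 0.480 and 2.05 in LN, and 2.25, 1.25, 2.07 and 3.82 in spleen libraries. All KO tumor libraries exceeded all LN and spleen libraries. Hk2 rose by 2.41 ± 0.59 log2 units in KO tumor against LN (adjusted p = 0.0306). That call was lost without KO tumor library 1 (adjusted p = 0.157) or 2 (0.118), or without LN library 1 (0.0849), 2 (0.0664) or 3 (0.0936). The ratio of Hk2 to Hk1 was higher in every KO tumor than in every WT tumor library, at -1.31 to -0.51 in KO tumor and -2.75 to -1.62 in WT tumor log2 units, with an exact permutation p of 0.1, the smallest that 3 against 3 allow (0.333 adjusted).

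Glucose-6-phosphate isomerase and phosphofructokinase carry out the next steps. Gpi1 was at 114, 167 and 154 FPKM in KO tumor, 161, 106 and 143 in WT tumor, 91.9, 56.8, 69.5 and 46.5 in LN, and 34.5, 75.8, 80.8 and 83.9 in spleen libraries. All tumor libraries exceeded all lymphoid ones, but no comparison passed, the nearest being 1.15 ± 0.35 in KO tumor against LN (adjusted p = 0.0967). With its copy Gm1840 added, which had up to 36.04 FPKM, the groups overlapped, at 114.6 FPKM in WT tumor library 3 and 118.8 in LN library 1. Of the phosphofructokinase genes, the platelet form Pfkp was the most abundant, at 53.3 to 79.3 FPKM in KO tumor, 66.8 to 87.8 in WT tumor, 13.1 to 50.0 in LN and 13.6 to 51.1 in spleen libraries, without overlap between tumor and lymphoid groups and without a call. Pfkp shares exon sequence with Pitrm1 on the opposite strand, and whether counting used strand is not stated in the sources used here. The liver form Pfkl was at 16.0 to 21.5 FPKM in KO tumor, 7.58 to 12.3 in WT tumor, 0.900 to 16.4 in LN and 0.630 to 7.42 in spleen libraries. The muscle form Pfkm was at 0 to 18.1 in KO tumor, 0.0252 to 6.96 in WT tumor, 2.03 to 9.48 in LN and 0 to 16.3 in spleen libraries, a wide range within each group. Pfkfb3 and Pfkfb4 make and remove the phosphofructokinase activator fructose 2,6-bisphosphate: Pfkfb3 ranged over 3.47 to 11.8 FPKM in KO tumor, 1.52 to 21 in WT tumor, 1.07 to 5.51 in LN and 1.48 to 14.8 in spleen libraries. Pfkfb4 was listed at 0 in 11 of 14 libraries, was at most 0.901 FPKM, and was not tested.

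Aldolase cleaves the doubly phosphorylated sugar, and triose phosphate isomerase (Tpi1) interconverts the resulting trioses. Aldoa was at 302, 453 and 422 FPKM in KO tumor, 419.6, 358 and 332 in WT tumor, 82.4, 89.7, 83.4 and 35.9 in LN, and 125, 74.7, 125 and 96 in spleen libraries. The lowest tumor library lay above the highest lymphoid one. Aldoa rose by 1.83 ± 0.33 log2 units in WT tumor against spleen (adjusted p = 0.0135) and by 2.41 ± 0.33 against LN (adjusted p = 0.00117), and by 1.90 ± 0.31 and 2.48 ± 0.31 in KO tumor against spleen and LN (adjusted p = 0.00251 and 0.000286). The WT tumor call against spleen was lost without WT tumor library 2 (adjusted p = 0.0600) or 3 (0.0506). The brain form Aldoc was less abundant, at 15.5 to 42.7 FPKM in KO tumor, 13.2 to 52.9 in WT tumor, 0 to 7.48 in LN and 0 to 12.5 in spleen libraries, above all lymphoid libraries in all tumor libraries and not called (adjusted p = 0.0802 to 0.162 over the 4 tumor comparisons with lymphoid tissue).

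Tpi1 had the largest fitted rise of the called genes in both WT tumor comparisons. It was at 682, 421 and 438 FPKM in KO tumor and 313, 226 and 386 in WT tumor, against 27.8, 25.8, 44.8 and 46.4 in LN and 98.3, 39.8, 10.4 and 10.3 in spleen libraries. The spleen libraries themselves spread over a wide range. The rise was 3.49 ± 0.64 log2 units in WT tumor against spleen (adjusted p = 0.0135), 3.07 ± 0.64 in WT tumor against LN (adjusted p = 0.0179), 4.22 ± 0.59 in KO tumor against spleen (adjusted p = 0.000786) and 3.80 ± 0.59 in KO tumor against LN (adjusted p = 0.00142). The call in WT tumor against spleen was lost without WT tumor library 2 (adjusted p = 0.0545) or 4 (0.0580) and with no filter on low values (0.0659). The call in WT tumor against LN was lost without WT tumor library 2 (0.0622) or 4 (0.0656), without LN library 1 (0.0510) or 2 (0.0574), and with no filter (0.0761). Both KO tumor calls held under every alternative tried.

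**Figure D3:**
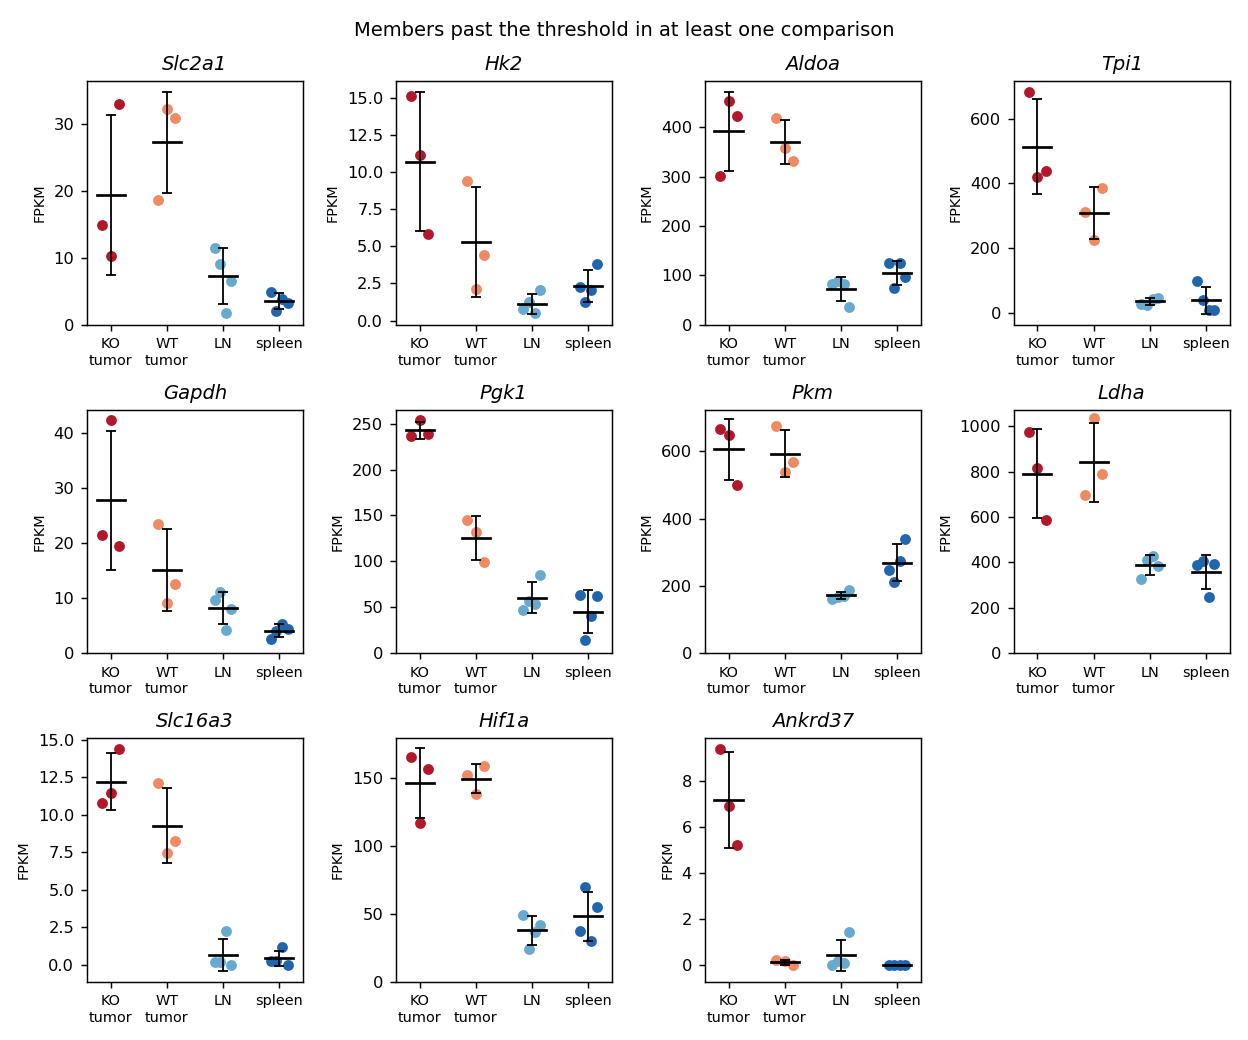
FPKM per library (points), group mean (line) and SD (bars) for the 11 genes called in at least 1 comparison, with KO tumor on the left, then WT tumor, LN and spleen. For Aldoa, Tpi1, Pgk1, Pkm, Ldha, Slc16a3 and Hif1a all 6 tumor libraries lie above all 8 lymphoid ones, and Ankrd37 is above 5 FPKM in the 3 KO tumor libraries alone.

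Glyceraldehyde-3-phosphate dehydrogenase (Gapdh) and phosphoglycerate kinase (Pgk1) open the energy-yielding part of the pathway. The Gapdh row was lower than the Pgk1 row in every library, at 21.6, 42.4 and 19.6 FPKM in KO tumor, 23.5, 9.21 and 12.6 in WT tumor, 9.67, 11.2, 4.32 and 7.98 in LN, and 2.59, 4.08, 5.28 and 4.49 in spleen libraries. It rose by 2.44 ± 0.51 log2 units in KO tumor against spleen (adjusted p = 0.0142), and the difference was 1.59 ± 0.54 in WT tumor against spleen (adjusted p = 0.179). The KO tumor call was lost without KO tumor library 2 (adjusted p = 0.0938) and with KO tumor and spleen fitted alone (0.0542). Gapdh has 77 near-identical copies in GENCODE M21 (at least 95% identity over 200 bases), of which 75 are pseudogenes and 11 had rows of their own. Those 11 rows summed to 8.44 to 124.4 FPKM, so the level of Gapdh cannot be separated from that of its copies. With the copies added, the KO tumor difference against spleen was 1.89 ± 0.52 (adjusted p = 0.0632), no longer past the threshold. With copies added to both genes, Gapdh was at 40.7 and Pgk1 at 31.5 FPKM in spleen library 2, so their order was reversed there.

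Pgk1, which lies on the X chromosome, was at 236, 253 and 238 FPKM in KO tumor, 145, 132 and 99.1 in WT tumor, 46.7, 56.6, 53.5 and 85.3 in LN, and 63.7, 14, 40.1 and 62.7 in spleen libraries. The 3 KO tumor libraries were close together and above every WT tumor library, and WT tumor was above LN and spleen. Pgk1 rose by 2.61 ± 0.43 log2 units in KO tumor against spleen (adjusted p = 0.00236) and by 2.02 ± 0.43 against LN (adjusted p = 0.0123). The call against LN was lost without KO tumor library 1 (adjusted p = 0.0516) or 2 (0.0594). In WT tumor against spleen the difference was 1.65 ± 0.47 (adjusted p = 0.110). Adding its 2 copies with rows, of which Pgk1-rs7 was the larger at 17.5 to 184.7 FPKM for both summed, put WT tumor against spleen past the threshold at 1.67 ± 0.39 (adjusted p = 0.0473).

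**Figure D4:**
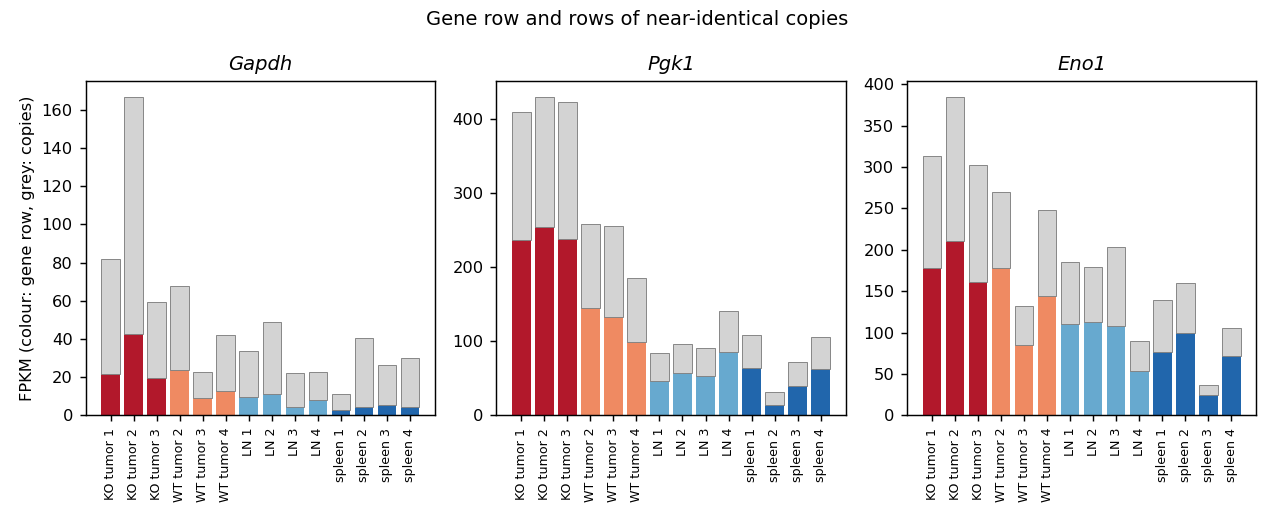
FPKM of the Gapdh, Pgk1 and Eno1 rows (coloured bars) with the rows of their near-identical copies stacked on top (grey), for each library from KO tumor on the left to spleen. The grey part exceeds the Gapdh row in all 14 libraries, and the stacked Pgk1 bars of the 3 KO tumor libraries stand above those of all others.

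Phosphoglycerate mutase and enolase follow. Pgam1 varied widely within groups, at 12.6 to 25.8 FPKM in KO tumor, 0.356 to 22.6 in WT tumor, 2.29 to 8.33 in LN and 0.285 to 9.73 in spleen libraries. Eno1, the ubiquitous enolase, was at 178, 211 and 162 FPKM in KO tumor, 178, 85.1 and 145 in WT tumor, 109.9, 113, 108 and 54 in LN, and 77.1, 99.6, 24.9 and 71.8 in spleen libraries. All KO tumor libraries exceeded all LN and spleen libraries, and 1 WT tumor library, at 85.1 FPKM, lay among the lymphoid ones. Eno1 was not called from its own row (1.56 ± 0.43 in KO tumor against spleen, adjusted p = 0.0614), and was called there with its copies Eno1b and Gm4735 added (1.77 ± 0.43, adjusted p = 0.0368). The muscle enolase Eno3 was at 3.96 to 33.9 FPKM in KO tumor, 7.75 to 32.4 in WT tumor, 19.3 to 51.0 in LN and 4.39 to 47.5 in spleen libraries, with no call.

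Pyruvate kinase (Pkm) makes pyruvate and ATP in the last step. Pkm was at 667, 649 and 499.8 FPKM in KO tumor, 674, 538 and 569 in WT tumor, 162, 168, 169.9 and 187 in LN, and 248, 211, 274 and 341 in spleen libraries. The tumor groups lay above spleen, and spleen above LN, with no overlap between them. Pkm rose by 1.78 ± 0.20 log2 units in WT tumor against LN (adjusted p = 0.000232) and by 1.80 ± 0.19 in KO tumor against LN (adjusted p = 8.5e-05), both held under every alternative. It rose by 1.16 ± 0.20 in WT tumor against spleen (adjusted p = 0.0106), a call lost without WT tumor library 2 (0.0529), and by 1.18 ± 0.19 in KO tumor against spleen (adjusted p = 0.00232). The rows give 1 value per gene and do not separate the PKM1 and PKM2 isoforms.

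Lactate dehydrogenase A (Ldha) favours lactate formation, and its B form (Ldhb) is more common in tissues that burn lactate. Ldha was the most abundant of the 35 genes on average, at 974, 814 and 586 FPKM in KO tumor, 698, 1034 and 788 in WT tumor, 327, 412, 429.6 and 385 in LN, and 390.3, 405, 247 and 392 in spleen libraries. Tumor libraries did not overlap lymphoid ones. The rise was 1.23 ± 0.21 log2 units in WT tumor against spleen (adjusted p = 0.0104), 1.10 ± 0.21 in WT tumor against LN (adjusted p = 0.0106), 1.14 ± 0.22 in KO tumor against spleen (adjusted p = 0.00822) and 1.0 ± 0.22 in KO tumor against LN (adjusted p = 0.0157). Each WT tumor call was lost in 2 of 14 alternatives, one of them without WT tumor library 3 (adjusted p = 0.0515 against spleen and 0.0640 against LN). Without KO tumor library 1 both KO tumor calls were lost (0.0589 against spleen and 0.108 against LN), and the call against LN was also lost without KO tumor library 2 (0.0743) or LN library 1 (0.0517).

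Ldhb ran the other way against lymph node. It was at 0.274, 46.7 and 36.5 FPKM in KO tumor and 18.1, 33.6 and 4.95 in WT tumor, against 68.5, 106.1, 67.5 and 99.3 in LN and 4.42, 10.5, 41.3 and 22.3 in spleen libraries. All LN libraries exceeded all others. The difference was -2.42 ± 0.70 log2 units in WT tumor against LN (adjusted p = 0.0845) and -2.68 ± 1.0 in KO tumor against LN (adjusted p = 0.227), neither past the threshold. With WT tumor and LN fitted alone, the first was past it (adjusted p = 0.0431). The log2 ratio of Ldha to Ldhb was 5.72 ± 1.17 in WT tumor (SD, n = 3) and 2.2 ± 0.33 in LN (SD, n = 4), with no overlap and an exact permutation p of 0.0286 (0.286 adjusted).

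Lactate leaves through MCT4 (Slc16a3), which suits export, and moves both ways through MCT1 (Slc16a1). Slc16a3 was at 10.8, 11.5 and 14.4 FPKM in KO tumor and 12.1, 7.44 and 8.25 in WT tumor, against 0.190, 0.189, 2.23 and 0.0122 in LN and 0.273, 0.238, 1.16 and 0 in spleen libraries. It was at most 0.273 FPKM in the lymphoid libraries other than LN library 3 and spleen library 3. Too few lymphoid libraries thus reached 1 FPKM for the filter, and Slc16a3 entered these tests only through the tumor libraries in which it was high. Slc16a3 rose by 2.89 ± 0.58 log2 units in WT tumor against spleen (adjusted p = 0.0216), 2.78 ± 0.58 in WT tumor against LN (adjusted p = 0.0177), 3.27 ± 0.56 in KO tumor against spleen (adjusted p = 0.00350) and 3.16 ± 0.56 in KO tumor against LN (adjusted p = 0.00397). The call in WT tumor against spleen was lost in 7 of 14 alternatives, among them those without WT tumor library 2 (adjusted p = 0.0666), 3 (0.0515) or 4 (0.0523). The call in WT tumor against LN was lost in 6, among them those without WT tumor library 2 (0.0589) or LN library 1 (0.0578), 2 (0.0623) or 4 (0.0588). With a pseudocount of 0.1 the difference against spleen was 4.69 and was not called (adjusted p = 0.0861), and the difference against LN was 4.58 and was not called (0.0713). Slc16a1 was above 3 FPKM in 1 library alone, WT tumor library 2 at 25.8 FPKM, and at most 2.33 FPKM elsewhere. Pdk1, a known HIF target, encodes a kinase that shuts off pyruvate dehydrogenase in mitochondria. It was at 7.20 to 21.6 FPKM in KO tumor, 1.70 to 31.0 in WT tumor, 4.89 to 19.2 in LN and 16.2 to 26.6 in spleen libraries, and was called in no comparison.

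Among the regulators, Hif1a encodes the oxygen-sensitive subunit and Epas1 its relative HIF-2α. Hif1a was at 165, 117 and 156 FPKM in KO tumor and 152, 138 and 159 in WT tumor, against 48.8, 24, 36.7 and 41.6 in LN and 37.3, 69.7, 30.3 and 55.1 in spleen libraries. The lowest tumor library exceeded the highest lymphoid one. Hif1a rose by 2.0 ± 0.37 log2 units in WT tumor against LN (adjusted p = 0.00820) and by 1.95 ± 0.34 in KO tumor against LN (adjusted p = 0.00315), both held under every alternative. It rose by 1.69 ± 0.37 in WT tumor against spleen (adjusted p = 0.0308), a call lost in 9 of 14 alternatives (adjusted p up to 0.0960), among them those without WT tumor library 2 (0.0903), 3 (0.0819) or 4 (0.0960), without spleen library 1 (0.0703) or 3 (0.0748), or with no filter on low values (0.0596). It rose by 1.64 ± 0.34 in KO tumor against spleen (adjusted p = 0.0127), a call lost without KO tumor library 1 (0.0681) or 3 (0.0631). These are transcript levels, and the oxygen control of HIF-1α acts on the protein. Epas1 was at 0.0139 to 5.98 FPKM in KO tumor, 0.316 to 0.953 in WT tumor, 0 to 0.934 in LN and 0.423 to 4.62 in spleen libraries.

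The prolyl hydroxylase genes and Vhl gave no call. Egln1, which encodes the main HIF hydroxylase, was at 22.4 to 26.6 FPKM in KO tumor, 20.6 to 74.3 in WT tumor, 2.75 to 20.9 in LN and 5.82 to 8.75 in spleen libraries. Its tumor libraries all exceeded spleen, with a difference of 2.06 ± 0.65 in WT tumor against spleen (adjusted p = 0.144). Egln3, itself a HIF target, was at 0.306 to 3.47 in KO tumor, 0.140 to 5.86 in WT tumor, 0.0205 to 4.35 in LN and 0 to 23.6 in spleen libraries. Vhl was at 5.63 to 13.4 in KO tumor, 0.560 to 12.1 in WT tumor, 2.47 to 19.7 in LN and 1.57 to 26.3 FPKM in spleen libraries, with overlap throughout.

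Among the HIF targets outside glycolysis, Ankrd37 alone was called. Bnip3l, a mitophagy receptor, was the most abundant, at 49.9 to 79.8 FPKM in KO tumor, 69.8 to 75.2 in WT tumor, 38.6 to 57.2 in LN and 24.2 to 50.1 in spleen libraries, with WT tumor above both lymphoid groups and no call. With its copy Bnip3l-ps added, WT tumor libraries, at 76.1 to 89.0 FPKM, overlapped LN, at 54.7 to 80.7 FPKM. Ndrg1, a stress-responsive gene, was at 12.2 to 25.9 in KO tumor, 20.3 to 28.9 in WT tumor, 4.31 to 11.4 in LN and 4.75 to 16.2 FPKM in spleen libraries. Ddit4, an inhibitor of mTORC1, was at 5.37 to 10.3 in KO tumor, 10.2 to 34.7 in WT tumor, 1.41 to 6.77 in LN and 0.630 to 3.31 FPKM in spleen libraries, and its WT tumor difference against spleen was 2.56 ± 0.67 (adjusted p = 0.0771). P4ha1, a collagen prolyl hydroxylase subunit, overlapped between all groups, at 11.5 to 15.3 in KO tumor, 4.39 to 13.5 in WT tumor, 2.22 to 12.0 in LN and 2.43 to 25.6 FPKM in spleen libraries. Vegfa, the angiogenic growth factor, was at 2.62 and 4.21 FPKM in WT tumor libraries 2 and 4 and at most 0.147 FPKM in the other libraries, and was not tested.

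Ankrd37 is a small ankyrin-repeat gene and known HIF-1 target. It was higher in every KO tumor than in every WT tumor library, without a call (limma, adjusted p = 0.177). It was at 9.38, 6.92 and 5.21 FPKM in KO tumor libraries, against 0.201, 0.161 and 0 in WT tumor, 0, 0.160, 0.1 and 1.41 in LN and 0 in all 4 spleen libraries. It rose in KO tumor against spleen (adjusted p = 0.00115), where no fold is given against a group listed at 0, and by 2.59 ± 0.44 log2 units in KO tumor against LN (adjusted p = 0.00285). Both calls held under every alternative. The shared estimate of its spread took in spleen libraries at 0 and WT tumor values near 0. Its SE in these fits may therefore be too small for the KO tumor group. Ankrd37 reached 1 FPKM in the 3 KO tumor libraries and LN library 4 alone. It thus entered these tests and that of KO tumor against WT tumor through the group in which it was high. Its WT tumor values lay below those that 3 reads give at the estimated depth, 0.303, 0.241 and 0.224 FPKM. It was not tested in the comparisons of the 3 wild-type groups, where too few libraries reached 1 FPKM. Ankrd37 shares exon sequence with Ufsp2 (57 bases) and Lrp2bp (259 bases) on the opposite strand, of which Ufsp2 reached 40.6 FPKM and Lrp2bp 0.0772 FPKM at most.

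In tumor Tregs labelled KO against those labelled WT, none of the 31 genes tested rose (0.0974% of all 8210 genes did) and none fell (0.183%) at an adjusted p under 0.05. At an unadjusted p under 0.05, 3 were higher and 0 lower, which is 9.68% of the group beside 8.64% of all genes. These 3 were Ankrd37 (2.84 ± 0.64, adjusted p = 0.177), Pgk1 (0.96 ± 0.26, adjusted p = 0.293) and Tpi1 (0.73 ± 0.28, adjusted p = 0.488). Ankrd37, in this count and the next, passed the filter of this fit only through the KO tumor libraries in which it was high. Every KO tumor library exceeded every WT tumor library for 4 genes, Pfkl, Tpi1, Pgk1 and Ankrd37, as for 7.54% of all genes, and for 0 it lay below (6.93%). The median difference was 0.125 over the group and 0.0718 over all genes. With the spread estimated over all 14 libraries, Ankrd37 alone was called (adjusted p = 0.00895), with the limits of the filter and of the spread given above. A missed threshold at 3 against 3 libraries does not show that the other genes were alike. Pkm, Ldha, Aldoa and Hif1a had small fitted differences, 0.02 ± 0.20, -0.10 ± 0.23, 0.07 ± 0.23 and -0.05 ± 0.28 in that order.

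Markers of other cells had unlike levels in the same libraries. Of 7 macrophage markers tested in KO tumor against WT tumor, 2, Tyrobp and C1qb, rose (0.0974% of all genes did). Tyrobp was at 91.8 to 177.3 FPKM in KO tumor and 0.492 to 6.11 in WT tumor libraries. Fcer1g was at 59.4 to 149.9 in KO tumor and 0.186 to 78.0 FPKM in WT tumor libraries. Lyz2 did not follow, at 0 to 6.21 in KO tumor and 0 to 19.9 FPKM in WT tumor libraries. Of 7 B cell markers tested in KO tumor against WT tumor, 0 were called. Igkc was at 1031 to 14660 FPKM in KO tumor and 43.2 to 249.2 in WT tumor libraries, whereas Ighm was at 236.1 to 305.2 in KO tumor and 306.1 to 530.5 in WT tumor libraries. Their part in the KO tumor values, including those of Ankrd37, Pgk1 and Tpi1, was not tested.

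**Figure D5:**
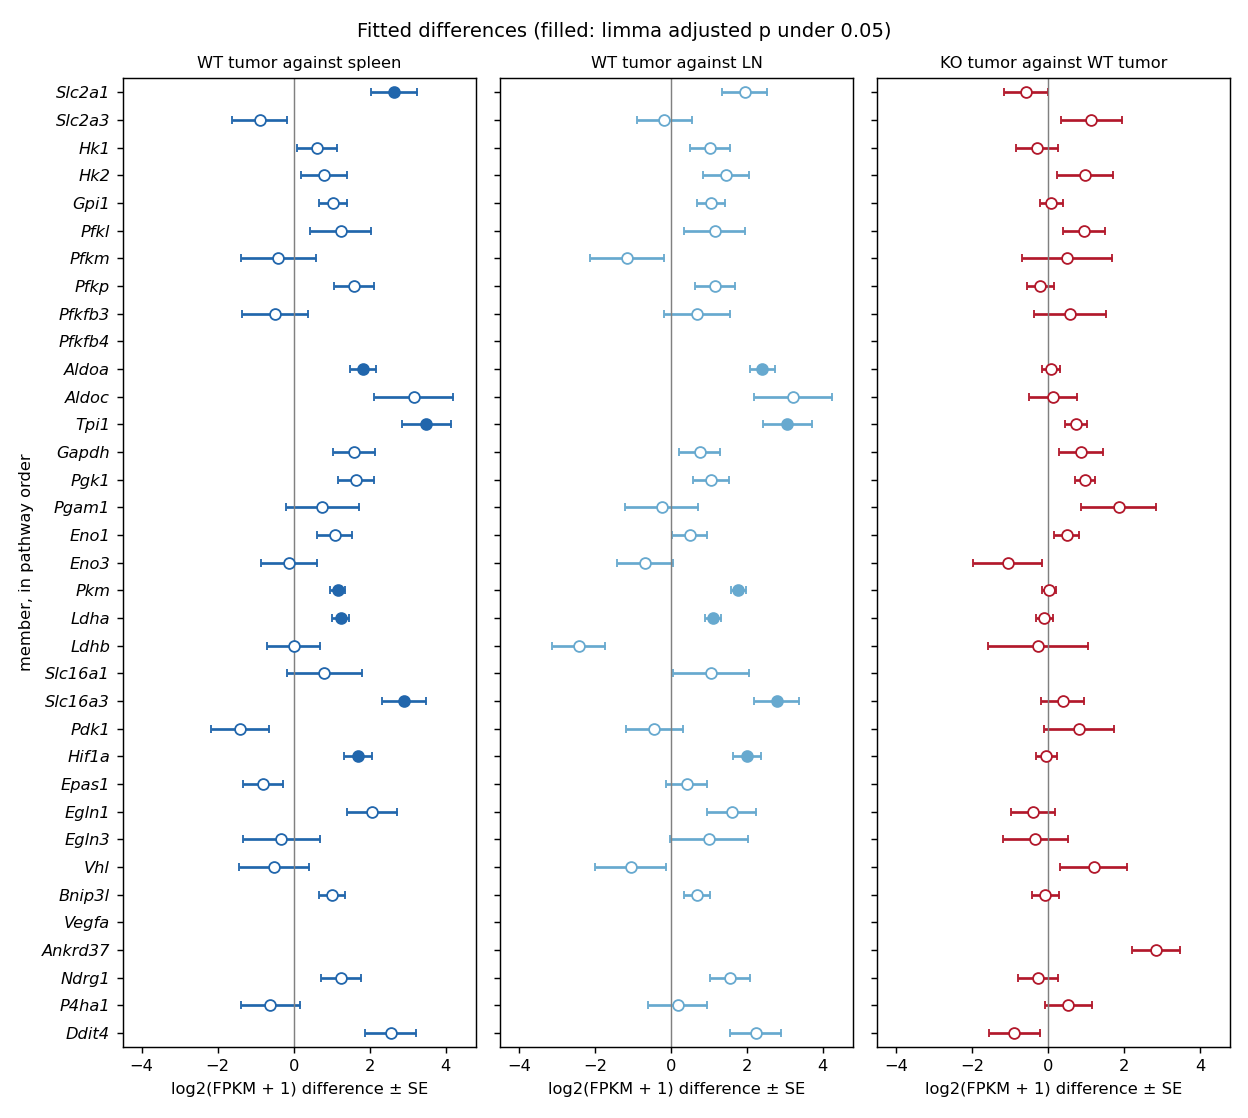
Fitted log2(FPKM + 1) differences with SE for each gene tested, in pathway order, in 3 panels: WT tumor against spleen, then against LN, and KO tumor against WT tumor. Filled points are limma calls at an adjusted p under 0.05. They lie to the right in the first 2 panels, and the third panel has none.

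No gene of the group was called between LN and spleen Tregs. None of 32 genes rose in LN against spleen (0.146% of all genes did) and none fell (0.354%). At an unadjusted p under 0.05, 1 was higher and 2 were lower, 9.38% of the group beside 10.4% of all genes. The higher one was Ldhb, by 2.43 ± 0.64 log2 units, and the lower ones were Pkm, by -0.62 ± 0.19, and Epas1, by -1.23 ± 0.50. Ldhb was the 1 gene above spleen in every LN library (3.87% of all genes) and Pkm the 1 gene below (4%). The median difference was 0.0978 over the group and 0.0245 over all genes, and it was -0.0014 without LN library 3.

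Wider lists of the pathway were tested in the same fits. Of 26 further HIF targets with rows, 17 were tested between the wild-type groups, and 2 of these, Bhlhe40 and Rora, rose in the WT tumor libraries relative to each lymphoid tissue, where 1.2% of all genes rose against spleen and 1.89% against LN. Bhlhe40, a transcriptional repressor, was at 27.4 to 43.3 FPKM in KO tumor and 29.1 to 37.1 in WT tumor, against 0.172 to 1.14 in LN and 0.154 to 8.19 in spleen libraries. It rose by 3.14 ± 0.70 log2 units in WT tumor against spleen (adjusted p = 0.0351) and by 4.62 ± 0.70 against LN (adjusted p = 0.00208). Rora, a nuclear receptor, was at 65.0 to 68.7 in KO tumor, 43.1 to 62.6 in WT tumor, 7.36 to 12.2 in LN and 10.9 to 18.7 FPKM in spleen libraries. Against both lymphoid tissues 3 of 19 rose in KO tumor (1.64% of all genes against spleen and 2.11% against LN), these 2 and Hilpda, a lipid droplet protein, which was at 46.3 to 61.4 FPKM in KO tumor, 14 to 42.3 in WT tumor, 0.337 to 25.1 in LN and 0.237 to 9.20 in spleen libraries.

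Of 14 genes tested in the pentose phosphate and other side branches, 1 was called. Rpe, the ribulose-phosphate epimerase, rose by 3.44 ± 0.70 log2 units in WT tumor against spleen (adjusted p = 0.0223) and by 3.29 ± 0.70 against LN (adjusted p = 0.0187), while its KO tumor libraries ran from 0.162 to 19.1 FPKM. Of all genes, 1.2% rose against spleen and 1.89% against LN. Of 9 further HIF regulators tested, Egln2, another HIF prolyl hydroxylase, fell by 1.61 ± 0.35 log2 units in KO tumor against spleen (adjusted p = 0.0187), at 11.6 to 14.3 FPKM in KO tumor, 35.5 to 45.4 in WT tumor and 29.4 to 59.9 in spleen libraries. Of all genes, 1.16% fell there. Egln2 was not called in KO tumor against LN. Of 6 further glycolysis isozymes and partners tested, Eno1b rose in KO tumor against spleen (2.49 ± 0.62, adjusted p = 0.0395; 1.64% of all genes rose), and Bsg, the chaperone of MCT4, rose in KO tumor against LN (1.38 ± 0.26, adjusted p = 0.00599, with 2.11% of all genes). Eno1b is a near-identical copy of Eno1, so its level cannot be separated from that of Eno1. None of 10 further genes around pyruvate entry was called in any comparison.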

How the data were processed

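RNA was measured by Smart-Seq2 sequencing in 14 libraries of sorted Foxp3-YFP+ Tregs. The deposited files hold FPKM per gene and library. Per the submitters' processing notes, which give names without their roles, the authors used Trimmomatic, TopHat2 2.1.1, Bowtie2 2.2.9, Cufflinks 2.2.1, Cuffdiff and DESeq2 with the builds mm10 and GRCm38. The treatment of reads with several matches, and whether counting used strand, is not recorded in the labels or headers. No read counts were used. From the steps between low FPKM values, the depth was estimated at 10.7 to 21.4 M reads (with 93.0 to 96.0% of low values within 0.1 of a whole read), and any multiple of a depth gives whole reads too.

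Genes at 1 FPKM or more in at least 3 libraries of a fit were tested on log2(FPKM + 1) with robust limma-trend (limma 3.58.1, R 4.3.3) and Benjamini-Hochberg adjustment over all genes tested. WT tumor, LN and spleen shared 1 fit (9616 genes), KO tumor against WT tumor used those 6 libraries (8210 genes), and KO tumor against lymphoid tissue used all 14 (10147 genes). Isozyme ratios had two-sided exact permutation tests (scipy 1.17.1). Whether same-numbered libraries belong together is not known. Their correlations were near 0, so no block was used in the main fits. Near-identical copies were found with blastn 2.17.0 in GENCODE M21 transcripts, which held 22201 of the 22255 gene IDs. Promoters came from RefSeq.

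The members and the gene lists were chosen with earlier results of these data known. Genes were named by a rule: every member, with values in each library for those called in any of 6 comparisons and for the main form of a step, and up to 4 further pathway genes per comparison. Adding the copies' FPKM was an alternative chosen after seeing the data. Other alternatives were the pseudocount, the filter, the libraries in the fit, scaling, array weights, a replicate block and leaving out each library.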

Additional observations from a re-analysis of the deposited data

Results flagged for a closer look

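Within groups of 4 libraries, single values that stood apart from the other 3 by Dixon's criterion (the gap to the nearest library against the group's range, on the log2(FPKM + 1) scale, above its 95% critical value) were found in 10 of 77 groups tested, where chance gives about 1 in 20. LN library 4 held 4 of them: Aldoa was low there at 35.89 FPKM and Eno1 low at 53.96 FPKM, while Epas1 was high at 0.9341 FPKM and Ankrd37 high at 1.411 FPKM. In the other LN libraries, Slc16a3 was high at 2.225 FPKM in library 3, Egln3 high at 4.354 FPKM in library 1 and P4ha1 low at 2.22 FPKM in library 2. Among spleen libraries, Gpi1 was low at 34.53 FPKM in library 1, Ldha low at 247.1 FPKM in library 3 and P4ha1 low at 2.43 FPKM in library 2. The tumor groups of 3 libraries were not tested in this way.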

How the results depend on the processing

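Of the 31 calls of single genes, 15 held in each of their 14 alternatives, 16 were lost in at least 1 and 0 reversed. Of the 7 genes higher in WT tumor against spleen, 4 were counted with no filter, 4 with the 2 groups fitted alone and 4 with array weights (both without Hif1a, Slc16a3 and Slc2a1), 5 with a pseudocount of 0.1, 8 with copies added and 1 to 6 when 1 library was left out, with 1, 2 and 3 without WT tumor library 2, 3 and 4. Of the 6 against LN, 4 to 6 were counted when 1 library was left out, and fitting those 2 groups alone put 1 gene, Ldhb, past the threshold as lower. KO tumor against WT tumor gave 1 gene, Ankrd37, with all 14 libraries fitted. Eno1, Aldoc, Gpi1 and Pfkl, not called in KO tumor against lymphoid tissue, passed in some alternatives. The counts for KO tumor were 7 to 10 against spleen and 6 to 9 against LN when 1 library was left out. Same-numbered libraries correlated at -0.0276 to 0.0301 (18 pairs), so the numbers were not taken as pairs, though this does not exclude pairing. With a replicate block, 3 genes were higher in WT tumor against spleen, without Hif1a, Slc16a3, Slc2a1 and Ldha, and Slc16a3 and Ldha were lost against LN, but it gave no other count over 1.5 times away. The median difference, when 1 library was left out, was 0.954 to 1.21 for WT tumor against spleen, -0.0014 to 0.177 for LN against spleen, 0.0624 to 0.315 for KO tumor against WT tumor, 1.19 to 1.37 for KO tumor against spleen (1.28 with 2 groups fitted, 1.26 with copies added) and 1.07 to 1.32 for KO tumor against LN (1.52 with a pseudocount of 0.1). Ratios that changed sign, none past the threshold, were Ldha to Ldhb in KO tumor against WT tumor (-1.68 to 1.12), Hk2 to Hk1 in WT tumor against spleen (-0.068 to 0.619) and LN against spleen (-0.51 to 0.21), Slc16a3 to Slc16a1 in LN against spleen (-0.20 to 0.92), and Pfkp to Pfkl in LN against spleen (-0.14 to 0.79) and WT tumor against LN (-0.44 to 0.48, and -0.30 with a pseudocount of 0.1). The cause of these changes was not tested, beyond the smaller number of libraries. The ratio of Bnip3 to Bnip3l could not be run, as Bnip3 had no row. At the estimated depth, 3 reads gave 0.0161 to 0.303 FPKM for these genes, so values at or below that were at the limit of detection.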
